A study of Homo sapiens with 18 samples.

Results

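DNA methylation was compared between 2 ways of silencing the same gene, a TALE platform and a dCas9 platform, in K562 cells, an established human erythroleukaemia line. The comparison used the 6 MeDIP-seq libraries of the silenced cells, 3 per platform, out of 18 samples in the series, and all 198884 genomic regions of the deposited count table. Of these regions, 198297 lie on assembled nuclear chromosomes, 586 on unplaced or alternative sequences and 1 on the mitochondrial genome (chrM), which is described apart. All cells, the controls included, were K562 carrying a B2M:tdTomato transgene, in which a red fluorescent protein reports on B2M. The TALE group was labelled as TALE silenced, the dCas9 group as dCas9 silenced, and 3 untreated MeDIP libraries served as background. Per the labels' protocols, treated cells received a cocktail of 3 plasmids, each coding for a different ATR, with 1 µg of the D3A-based plasmid and the others in equimolar amounts, and 250 ng of sgRNA plasmid was added for dCas9. How long after treatment cells were collected, the sorting of silenced cells and the clonality of the line are not given in the sources used here. The labels number the libraries as replicates without saying whether these were separate cultures. The p-values below therefore rest on the spread between these libraries, which may be technical. The count models used below also share the estimate of spread across regions, so the error of 1 region is not that of its own replicates alone.

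B2M encodes beta-2 microglobulin, the invariant chain that surface MHC class I needs to fold and present peptides. TALE proteins read DNA through a tandem array of repeats, whereas dCas9, a nuclease-dead Cas9, is guided by an RNA, and both can carry effector domains such as the catalytic domain of DNMT3A, which methylates cytosine in CpG dinucleotides. Methylation of a CpG-rich promoter is associated with stable silencing and can be copied at each cell division by maintenance methyltransferases. In MeDIP-seq, fragments of sonicated DNA are captured with an antibody against 5-methylcytosine, so the count in a region depends on its methylation, its CpG density and the number of copies of that sequence in the cells.

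Sequences of the target and of 1 of the regions of smallest p are given first, from the GRCh37 reference, plus strand, in lower case with each CpG in capitals. The B2M stretch (chr15:45003522-45003706) is a part of the targeted region that ends before the annotated start of the canonical B2M transcript, at position 45003715. It holds 11 CpG sites in 185 bases. The other stretch is the first 300 bases of the region in SYMPK (chr19:46345691-46345990), higher in TALE, shown for comparison with the target.
B2M start: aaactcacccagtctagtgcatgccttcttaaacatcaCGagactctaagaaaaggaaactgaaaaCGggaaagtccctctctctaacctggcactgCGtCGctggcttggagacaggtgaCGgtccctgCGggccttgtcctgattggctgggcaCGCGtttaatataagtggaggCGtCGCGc
SYMPK: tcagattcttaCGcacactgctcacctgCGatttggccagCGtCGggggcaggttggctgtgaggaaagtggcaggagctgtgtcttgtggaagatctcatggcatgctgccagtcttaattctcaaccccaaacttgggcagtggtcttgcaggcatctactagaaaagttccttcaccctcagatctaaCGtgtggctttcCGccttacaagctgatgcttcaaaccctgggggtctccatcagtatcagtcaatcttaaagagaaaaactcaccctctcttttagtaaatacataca
The SYMPK stretch holds 6 CpG sites. The median region of the table was 287 bp long with 2.81 CpG sites per 100 bp.

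MeDIP counts at the targeted B2M start were found in all libraries of both platforms and in no untreated library, and the platforms' levels did not differ beyond the replicate error. The region (chr15:45003405-45003721, GRCh37, 317 bp, 20 CpG sites) spans the annotated start of B2M and the start of PATL2, a gene on the opposite strand. Replicates 1, 2 and 3 had 7, 10 and 9 counts with TALE and 14, 13 and 16 counts with dCas9. The untreated libraries had 0 counts there of 10311063 in all, which allows up to 3 counts, or 0.291 CPM (counts scaled to a common library size) by library totals. Set against that floor of 3 counts, the observed level was 9.16-fold higher with TALE and 14.5-fold higher with dCas9. The floor is taken over the group and covers the counting error of the untreated libraries only. Error in the TALE and dCas9 counts is not covered, so these ratios are not lower bounds. Against untreated cells, edgeR called the region for dCas9 (adjusted p 0.0438) and not for TALE (adjusted p 0.522). The region passed the filter on low counts only through silenced libraries, and its only peaks were in silenced lists. A difference from untreated cells was thus partly set by that selection. The difference between the platforms is the test given next. Every dCas9 library had more raw counts than every TALE library, but once depth was accounted for the groups overlapped. In CPM scaled with TMM factors, the TALE libraries had 3.23, 3.93 and 2.47, and the dCas9 libraries 5.53, 3.38 and 6.91. TALE had a mean of 3.21 ± 0.727 and dCas9 one of 5.27 ± 1.78 (SD, n = 3 each). The log2 difference, TALE minus dCas9, was −0.70 (SE 0.625), with a 95% interval from −1.94 to 0.55, and the adjusted p was 1.00 by edgeR's quasi-likelihood test. The interval places the TALE level between 26.1% and 146% of the dCas9 level. The exact two-sided permutation test of log2(CPM + 0.5) gave p = 0.2, where 0.1 is the smallest p that 3 libraries against 3 allow. By p, the region stood at rank 27280 of the 105652 regions tested. At this depth a difference between platforms was not detectable there.

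The deposited peak lists, which were given per library, held a peak over the B2M start in 1 of 3 TALE lists and in 1 of 3 dCas9 lists. The TALE replicate 2 peak had the same limits as the region itself and a fold enrichment of 2.71, with a −log10 q of 2.07, in the authors' values. The dCas9 replicate 3 peak was wider, at 435 bp, with a fold enrichment of 2.37 and a −log10 q of 1.24. None of the 3 untreated lists held one. The wider peak was in the library with the most counts at B2M, dCas9 replicate 3.

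Around B2M no region was called between the platforms. Within 1 Mb of the B2M start the table held 270 regions, of which 191 passed the filter on low counts. In the 190 other than the B2M start, the log2 difference, TALE minus dCas9, ran from −0.94 to 1.24 with a median of −0.02. Of these, 4 were higher and 4 lower in TALE at an unadjusted p under 0.05, against 2.23% and 2.24% of all regions tested, and 0 passed the adjusted threshold of 0.05, against 0.000947% of all regions. The nearest tested region upstream, 21341 bp from the start, differed by −0.24 (SE 0.561), and the nearest downstream, 11296 bp away, by 0.72 (SE 0.492). The region of smallest p on the TALE side lay in an intron of MFAP1, which encodes a splicing factor (chr15:44112276-44112626), and differed by 0.93 (SE 0.377, edgeR adjusted p 1.00). The region of smallest p on the dCas9 side lay in an intron of SPG11, mutated in a hereditary spastic paraplegia (chr15:44901969-44902828), and differed by −0.50 (SE 0.228, adjusted p 1.00).

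The only region called between platforms was chrM. It spans nearly all of the mitochondrial genome (16266 bp), a small circular genome present in many copies per cell, so that its count moves with copy number as well as with methylation. Replicates 1, 2 and 3 had 2903, 2993 and 5265 counts with TALE and 5422, 7002 and 6794 with dCas9. As a share of all counts this was 0.115%, 0.101% and 0.124% for TALE and 0.183%, 0.156% and 0.250% for dCas9. All 3 TALE shares lay below all 3 dCas9 shares. The exact (Clopper-Pearson) 95% intervals, which cover counting error only, were 0.120% to 0.127% for the highest TALE library and 0.152% to 0.160% for the lowest dCas9 library. TALE had a mean share of 0.113% ± 0.0113 and dCas9 one of 0.196% ± 0.0481 (SD, n = 3 each), a ratio of 1.74. The log2 difference, TALE minus dCas9, was −0.80 (SE 0.120, edgeR adjusted p 0.000249). That SE uses the spread shared across regions and is not that of the chrM libraries alone. In CPM, chrM was at 1321 ± 137 with TALE, 2298 ± 574 with dCas9 and 1984 ± 1129 in untreated cells (SD, n = 3 each). The exact permutation test of the shares gave p = 0.1, the smallest it can give. Untreated libraries spanned the range of both platforms, at 0.0819%, 0.272% and 0.155%, and neither platform was called against them (edgeR adjusted p 0.484 for TALE and 1.00 for dCas9).

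The call on chrM depended on the test and on 1 library. DESeq2 gave the same log2 difference, −0.80, with an unadjusted p of 0.0629 and an adjusted p of 1.00. Without dCas9 replicate 3 the difference was −0.58 with an edgeR adjusted p of 0.783. With no filter on low counts the edgeR adjusted p was 0.527. The 9 other regions with a mean above 9 on the log2 CPM scale, where chrM stood at 10.9, differed by −0.04 to 0.08 between platforms. Most of these 9 were less abundant than chrM. The RNA libraries of the same groups are separate samples. In them the 13 mitochondrial mRNAs took 5.66%, 3.81% and 5.89% of counts with TALE and 5.75%, 13.4% and 10.3% with dCas9. The untreated RNA libraries had 6.74%, 9.66% and 9.64%. TALE and dCas9 shares overlapped, with p = 0.2 by the exact permutation test. The 13 genes encode subunits of the respiratory chain and ATP synthase, and their median log2 difference, TALE minus dCas9, was −1.13. All 13 had an unadjusted p under 0.05, against 6.38% of all 13786 genes tested, but 0 of 13 passed the adjusted threshold, against 0.0% of all genes (smallest adjusted p 0.511 by edgeR and 0.206 by DESeq2). Without dCas9 RNA replicate 1, 6 of the 13 passed, and with no filter on low counts all 13 did. The share of all genes that passed under those settings is not given here. The other 10 alternatives gave 0 of 13. The median was −1.43 without dCas9 RNA replicate 1 and −0.76 without dCas9 RNA replicate 2. All 13 were measured in the same libraries, so they are not independent of each other. Copy number and methylation cannot be told apart in the chrM counts.

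On the nuclear chromosomes, 0 of the regions tested were called between TALE and dCas9. Of 105652 regions tested, chrM included, 2355 were higher and 2368 lower in TALE at an unadjusted p under 0.05 (edgeR). The 3 TALE libraries did not overlap the 3 dCas9 libraries in 10530 regions, or 9.97%. The log2 differences had a median of 0.00 and an SD of 0.40, and the median 95% interval reached 0.76 to either side, a 1.69-fold change. Differences were widest in regions of low count, and the regions of smallest p lay on the edge of that cloud.

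The regions of smallest p are described as the extremes of this distribution. On the lower side in TALE, the region near DUSP16, which encodes a MAP kinase phosphatase, had 3, 0 and 6 counts in TALE, 14, 33 and 18 in dCas9 and 8, 11 and 10 in untreated cells. It had a log2 difference of −2.74 (SE 0.573), and its edgeR adjusted p of 0.352 was the smallest among nuclear regions. Its untreated CPM, 3.41 ± 1.14 (SD, n = 3), lay between those of TALE, 1.01 ± 0.886, and dCas9, 7.29 ± 1.58. The region in introns of HDAC5, a class IIa histone deacetylase, and G6PC3, a glucose-6-phosphatase, had 4 counts in each TALE library and 14, 25 and 14 in the dCas9 libraries. There the untreated libraries, with 19, 14 and 18 counts, sat with dCas9, and the log2 difference was −2.03 (SE 0.508, edgeR adjusted p 1.00).

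Of the other regions lower in TALE, one lay 71306 bp from the start of CUX1, a homeobox factor (chr7:101387586-101387878), with 7, 0 and 19 counts in TALE and 23, 39 and 21 in dCas9. Its log2 difference was −1.64 (SE 0.418). A region in an intron of ZFYVE9, a SMAD anchor (chr1:52614396-52614649), had 1, 14 and 7 counts in TALE against 22, 33 and 19 in dCas9. In both regions a single TALE library held most of the TALE counts, and the log2 difference moved with it, to −2.62 without TALE replicate 3 and −1.10 without TALE replicate 2 by CUX1, and to −2.62 without TALE replicate 2 and −1.27 without TALE replicate 1 in ZFYVE9. A region of 2062 bp by CENPF, a kinetochore gene (chr1:214771717-214773778), was the most deeply counted of the group, with 66, 65 and 92 counts in TALE and 97, 176 and 95 in dCas9. It differed by −0.64 (SE 0.167), and its edgeR adjusted p was 1.00, as for the regions on the higher side.

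On the higher side, the region in an intron of UBAP2L, an RNA-binding protein of stress granules, had 34, 21 and 50 counts in TALE and 11, 12 and 16 in dCas9, a log2 difference of 1.44 (SE 0.340). The region in an intron of GPBP1L1 was the most even within groups, with 14.3, 14.1 and 12.9 CPM in TALE and 5.14, 5.71 and 5.61 CPM in dCas9. Its log2 difference was 1.31 (SE 0.310), and the untreated libraries, at 12.3, 10.2 and 9.97 CPM, were near TALE. A region in an intron of UBE4B, a ubiquitin ligase (chr1:10136474-10137014), had 40, 53 and 58 counts in TALE and 15, 36 and 19 in dCas9, with mean CPM of 18.4 ± 2.44 and 7.83 ± 1.74 (SD, n = 3 each). The region that overlaps an exon of SYMPK, a scaffold of mRNA 3′ end processing, had 31, 26 and 35 counts in TALE against 16, 13 and 5 in dCas9, with mean CPM of 11.4 ± 2.56 and 3.95 ± 2.14 (SD, n = 3 each). The last lay in an intron of the record of OR55B1P, an olfactory receptor pseudogene (chr11:4171705-4171960), with 20, 18 and 16 counts in TALE and 5, 7 and 1 in dCas9, a log2 difference of 2.16 (SE 0.544). In UBAP2L, GPBP1L1 and SYMPK the untreated mean was closer to the TALE mean than to the dCas9 mean.

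How reads with several matches in the genome were placed is not given in the sources used here, so the count of a region in repeated sequence is uncertain.

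At the scale of 1 Mb no window was called between the platforms, and the error was smaller than for single regions. Counts were summed over regions in each window, which gave 2476 tested windows with a median total of 6856 counts over the 9 libraries. None was called between TALE and dCas9 (0.0% at an adjusted p under 0.05 by edgeR, smallest adjusted p 0.899), and 116, or 4.68%, had an unadjusted p under 0.05 (69 by DESeq2, which also called 0). In 91.1% of windows the log2 difference was within 0.2 of 0, and in 88.5% the 95% interval lay within a 1.5-fold change either way. The window that holds B2M, from 45 to 46 Mb of chromosome 15, had 1056, 1150 and 1772 counts in TALE and 1287, 1812 and 1080 in dCas9. Its log2 difference was −0.01 (SE 0.0446), and the groups overlapped.

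The windows of smallest p are given as the extremes of this comparison. Lower in TALE were a window at 2 to 3 Mb of chromosome X, which includes the end of the pseudoautosomal region shared with the other sex chromosome (−0.40, SE 0.111), a window at 59 to 60 Mb of chromosome 5 (−0.44, SE 0.126) and a window at 194 to 195 Mb of chromosome 1 (−0.21, SE 0.0721). Higher in TALE were windows at 60 to 61 Mb of chromosome 2 (0.33, SE 0.109) and at 80 to 81 Mb of chromosome 16 (0.34, SE 0.115). A window at 66 to 67 Mb of chromosome 4 had a log2 difference of 1.99 (SE 0.605) but rested on 4 regions, with 12, 11 and 28 counts in TALE and 2, 8 and 3 in dCas9. Its untreated counts, 28, 10 and 19, lay with TALE, and edgeR called it for dCas9 against untreated cells (−2.07, adjusted p 0.0482). The chromosome 1 window was called for TALE against untreated cells (−0.28, edgeR adjusted p 0.0327). The others of these windows were not called against untreated cells. Between TALE and dCas9 the edgeR adjusted p ran from 0.899 to 0.980 for these 6 windows. In all but the chromosome 1 window the TALE and dCas9 libraries did not overlap, as in 10.5% of all windows.

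Against the untreated libraries, which both comparisons share, windows did pass the threshold. With TALE 19 windows were called, or 0.767%, of which 11 were higher, and with dCas9 44 windows, or 1.78%, of which 23 were higher. In the 49 windows called in either, the difference between TALE and dCas9 ran from −0.21 to 1.99 with a median of 0.02, 9 had an unadjusted p under 0.05, against 4.68% of all windows, and 0 were called. These windows were selected by calls that use the same TALE and dCas9 values, so nothing is read from that count. On chromosome 12, with 117 tested windows, 7 were called for TALE and 6 for dCas9, all higher than in untreated cells. On chromosome 7, with 144 tested windows, 3 and 13 were called, also all higher. Calls elsewhere went both ways. On chromosome 19, with 58 tested windows, 1 was called for TALE, which was higher, and 7 for dCas9, of which 1 was higher. On chromosome 1, with 215 tested windows, 4 were called for TALE and 2 for dCas9, of which 0 were higher. Chromosome 7 took 6.74%, 6.82% and 6.72% of nuclear counts in TALE, 6.83%, 6.84% and 6.78% in dCas9, and 6.61%, 6.58% and 6.56% in untreated cells. Both platforms lay above the untreated range there, and TALE and dCas9 overlapped (exact permutation p = 0.2). DNA copy number and methylation cannot be told apart in these sums.

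Libraries of the 2 platforms differed from each other about as much as replicates did. In 1 Mb windows, the chi-square per degree of freedom was 1.995 to 2.135 between TALE libraries, 2.08 to 2.23 between dCas9 libraries and 2.02 to 2.27 between a TALE and a dCas9 library. Between a TALE and an untreated library it was 2.305 to 2.59, and between a dCas9 and an untreated library 2.35 to 2.86. Over single regions, Pearson's r of log2 CPM was 0.758 to 0.801 between TALE libraries, 0.768 to 0.807 between dCas9 libraries and 0.751 to 0.835 across platforms, a description over regions that are not independent replicates.

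At gene starts, taken as the 5′ end of each protein-coding gene record with 2 kb on either side, 8778 starts held at least 1 region and 6151 were tested. None was called between platforms (0.0%; smallest edgeR adjusted p 0.926), and 149 (2.42%) were higher and 130 (2.11%) lower in TALE at an unadjusted p under 0.05 (147 in both directions by DESeq2, which also called 0). The starts of smallest p on the higher side were WDR64, a WD-repeat gene, with 12, 27 and 43 counts in TALE against 6, 15 and 7 in dCas9 (1.57, SE 0.401), the most upstream annotated start of ACTB, the gene of beta-actin, with 43, 97 and 90 against 34, 62 and 46 (0.75, SE 0.221), and LCN12, a lipocalin (1.16, SE 0.366). LRRC28 and TTC23 share 1 region between their starts and had 16, 12 and 41 counts in TALE and 12, 6 and 6 in dCas9 (1.49, SE 0.443). On the lower side, DYNC1LI1, a dynein light intermediate chain, had 9, 17 and 18 counts in TALE against 28, 39 and 33 in dCas9 (−1.14, SE 0.343). COPE, a coatomer subunit, and DDX49, an RNA helicase, share 2 regions, with 32, 27 and 33 counts in TALE against 49, 74 and 46 in dCas9 (−0.80, SE 0.246). TM2D1 (−0.52, SE 0.163) and BCKDK, the kinase that restrains branched-chain ketoacid breakdown (−0.99, SE 0.320), completed the group. Only the DYNC1LI1, COPE and DDX49, TM2D1, BCKDK, WDR64 and LCN12 starts had TALE and dCas9 libraries that did not overlap in CPM, as did 9.67% of all starts tested.

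Gene lists were read for how many of their tested starts differed. Of the MHC class I and peptide loading list, to which B2M belongs, 11 of 23 starts were tested, 6 were higher and 5 lower in TALE with a median log2 difference of 0.03, against 0.00 over all starts. CANX, the chaperone calnexin, had 10, 16 and 13 counts in TALE and 26, 37 and 17 in dCas9 (−0.94, SE 0.358, unadjusted p = 0.0111 by edgeR, adjusted p 0.986), and PDIA3, a disulfide isomerase of the loading complex, differed by 0.78 (SE 0.408). In DNA methylation enzymes and readers, 7 of 18 were tested, with a median of 0.09, from TET3, a 5-methylcytosine dioxygenase, at −0.52 (SE 0.403) to MBD1, a methyl-CpG binding protein, at 0.28 (SE 0.262). In KRAB and H3K9 machinery, 7 of 15 annotated genes were tested, with a median of −0.17. SETDB1, an H3K9 methyltransferase, had the smallest p on the lower side at −0.26 (SE 0.148). On the higher side it was ZNF10, a KRAB zinc finger gene, at 0.34 (SE 0.345), which shares its 1 region with the start of ZNF891. Apart from CANX, 0 starts of these 3 lists had an unadjusted p under 0.05, against 4.54% of all starts tested.

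Lists of developmental, germline and lineage genes also held 0 called starts. Of 40 imprinted genes, 11 were tested with a median log2 difference of 0.18, and FAM50B (0.70, SE 0.407) and NNAT (−0.36, SE 0.210) had the smallest p in each direction. Of 40 germline and cancer-testis genes, normally silenced by promoter methylation in somatic cells, 8 were tested with a median of −0.11, with the smallest p in each direction at TEX11 (0.56, SE 0.446) and HORMAD1 (−0.45, SE 0.272). Of 39 HOX genes, 11 were tested with a median of 0.05, with the smallest p in each direction at HOXB8 (0.24, SE 0.207) and HOXB5 (−0.20, SE 0.152). Of 23 globin and erythroid genes, 6 were tested with a median of 0.14, with the smallest p in each direction at EPOR, the erythropoietin receptor (0.30, SE 0.220), and HBA2 (−0.14, SE 0.236), whose near-identical copy HBA1 makes its counts uncertain. Interferon-response genes had 2 of 27 starts tested, GBP5 at 0.28 (SE 0.573) and ISG15 at −0.65 (SE 0.331). In these 5 lists 0 starts had an unadjusted p under 0.05, against 4.54% of all starts tested. With so few starts per list, nothing is read from that count.

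The largest list, 240 zinc finger genes of chromosome 19, many of which encode KRAB repressors, had 128 starts tested. Of these 66 were higher and 62 lower in TALE, with a median log2 difference of 0.01, and 6 were higher and 3 lower at an unadjusted p under 0.05, against 2.42% and 2.11% of all starts. ZNF44 had 42, 29 and 30 counts in TALE against 19, 29 and 12 in dCas9 (0.88, SE 0.325). ZNF283, which shares counted sequence with the start of LYPD5, had 79, 95 and 147 against 129, 212 and 107 (−0.42, SE 0.141). In all 9 lists 0 starts passed the adjusted threshold.

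Shares of the captured DNA differed between platforms by at most 0.179 percentage points. Regions were split by chromosome (24), by position (gene start, exon, intron, intergenic) and by CpG density in 5 classes of about equal number, and each share of nuclear counts was compared by an exact two-sided permutation test with adjustment over all 33. With 3 libraries against 3 this test cannot go below 0.1, so no share could have passed 0.05, and the values are given as a description. The groups did not overlap in 1 of 33 shares (3.03%), chromosome 14, at 1.988%, 1.991% and 1.995% for TALE against 1.986%, 1.986% and 1.981% for dCas9, and the smallest adjusted p was 0.776. Introns took a mean of 58.6% of counts in both groups, and gene starts took 6.47% ± 0.0168 with TALE and 6.45% ± 0.0343 with dCas9 (SD, n = 3 each). The difference of 0.179 points was in the class of highest CpG density, with 18.6%, 18.8% and 18.7% in TALE and 18.5%, 18.8% and 18.4% in dCas9. Across these classes, the median log2 difference of single regions went from −0.01 in the sparsest to 0.01 in the densest.

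The deposited peak lists differed between platforms by less than their replicate spread. TALE lists held 87978, 97284 and 117948 peaks and dCas9 lists 97205, 120603 and 93622, and within each platform the deeper the library, the more peaks it had. TALE lists averaged 101070 ± 15339.5 peaks and dCas9 lists 103810 ± 14653.1 (SD, n = 3 each, exact permutation p = 0.8), and the covered length 114 ± 23.9 Mb against 119 ± 22.8 Mb (exact permutation p = 0.6). The base-pair Jaccard index, the shared over the combined length of 2 lists, averaged 0.474 between TALE lists, 0.485 between dCas9 lists and 0.486 across platforms. Pairs across platforms thus lay around the pairs of replicates. Of all regions, 55369 (27.8%) had a peak in all 6 lists, 635 (0.319%) in all 3 TALE lists and none of dCas9, and 977 (0.491%) in all 3 dCas9 lists and none of TALE. Those 635 regions still had a median of 16 counts over the 3 dCas9 libraries against 30 over the TALE libraries, and the 977 had 14 over the TALE libraries against 30. Only 104 of the 635 and 194 of the 977 were also without a peak in all 3 untreated lists.

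All-or-none patterns, chosen after the values were seen, were rare between platforms. Of 198884 regions, 1 had 0 counts in all TALE libraries and at least 7 in each dCas9 library. It lay in an intron of ITGA8, an integrin subunit gene (chr10:15699395-15699748), with 20, 9 and 9 counts in dCas9 and 1, 1 and 4 in untreated cells. In the opposite direction 1 region, near CPXM1 (chr20:2754242-2754535), had 11, 7 and 9 counts in TALE, 0 in each dCas9 library and 2, 1 and 0 in untreated cells. Against untreated libraries at 0, the pattern was met by 1 region for TALE, the B2M start, and by 2 for dCas9, the B2M start and an intronic region 93039 bp from the start of SLC4A3 (chr2:220585155-220585645). That second region, with 26 CpG sites, had 11, 30 and 7 counts in dCas9 and 0, 5 and 7 in TALE. The minimum of 7 equals the lowest count of the B2M start in a silenced library, so the B2M start had to meet the pattern.

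RNA gave a second readout. Of 46 entries, which comprise the genes overlapped by or nearest to the regions near B2M and of smallest p, the named gene starts and B2M_tomato, 39 were tested and 0 were called between platforms, with log2 differences from −0.29 to 0.62. At the upper end stood the B2M entry, at 0.401 ± 0.126 CPM (SD, n = 3) in TALE and 0.264 ± 0.0688 CPM (SD, n = 3) in dCas9 (0.62, SE 0.563, edgeR adjusted p 0.878). It rested on only 3, 7 and 4 counts in TALE and 2, 3 and 3 in dCas9. The entry named B2M_tomato was at 15.1 ± 2.84 CPM and 16.3 ± 2.57 CPM (−0.11, SE 0.155, edgeR adjusted p 0.928). Untreated cells had 6.45 ± 0.487 CPM of B2M and 379 ± 18.0 CPM of B2M_tomato (SD, n = 3 each). Against them the log2 differences were −3.94 with TALE and −4.56 with dCas9 for B2M. For B2M_tomato they were −4.65 and −4.54, and edgeR called all of these. DYNC1LI1 had 75.4 ± 7.79 CPM (SD, n = 3) in TALE and 61.7 ± 4.96 CPM (SD, n = 3) in dCas9, and was the 1 entry of 39 with an unadjusted p under 0.05, against 6.38% of all genes (0.29, SE 0.123, edgeR adjusted p 0.745). ACTB RNA differed by −0.02 (SE 0.168), and HDAC5 RNA by 0.04 (SE 0.163). All 10 K562 markers, among them the erythroid factors GATA1 and KLF1, reached 1 CPM in at least 1 silenced RNA library, with summed levels of 5829 to 8582 CPM in TALE and 5484 to 8002 CPM in dCas9. Of the markers of other cells, 2 of 5 for T or B cells, 2 of 4 for fibroblasts and 1 of 3 for epithelium (EPCAM) reached 1 CPM, with sums of 16.5 to 25.9, 6.85 to 10.9 and 103 to 123 CPM in TALE and 22.3 to 29.8, 6.19 to 6.73 and 84.8 to 109 CPM in dCas9.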

How the data were processed

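MeDIP-seq libraries of 3 TALE-silenced, 3 dCas9-silenced and 3 untreated K562 samples were compared, with 9 RNA-seq libraries of the same groups as a second readout. Per the labels' protocols, DNA was sonicated, libraries were pooled after adapter ligation and the pool was immunoprecipitated with an antibody against 5-methylcytosine. The submitters' processing notes list BWA 0.7.5, Picard, MACS2, bedtools and hg19 for MeDIP and STAR 2.3.0 for RNA, without their roles, and the rule that made the regions and the placing of reads with several matches are not given in the sources used here. The authors deposited raw counts per region and per gene. The deposited peak lists give a score, a fold enrichment and −log10 p and q values per peak, as their broadPeak layout has it. MeDIP totals were 2529729, 2961704 and 4261460 counts for TALE replicates 1 to 3, 2955337, 4492751 and 2722898 for dCas9, and 3790610, 2767297 and 3753156 for untreated cells.

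Counts were tested with edgeR 4.0.16 (R 4.3.3), with TMM scaling, filterByExpr at a minimum count of 10, group means fitted over 9 libraries, the quasi-likelihood test and Benjamini-Hochberg adjustment with a threshold of 0.05. The test was checked on simulated data. DESeq2 1.42.0 was an alternative, and bedtools 2.31.1 gave overlaps. Regions were annotated with GENCODE 44 on GRCh37. Single values were tested by exact two-sided permutation, with a smallest p of 0.1. Named items were the B2M start, chrM, everything called, the 5 nuclear regions, 3 windows and 5 gene starts of smallest p in each direction, and the starts of smallest p in each gene list. The comparison, items and lists were chosen with earlier results of these data known. Non-immunoprecipitated control libraries are not analysed here. The sequences of some regions are not reported here.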

Additional observations from a re-analysis of the deposited data

Results flagged for a closer look

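The chrM region differed between the TALE and dCas9 groups in the test of the difference itself, with a log2 difference, TALE minus dCas9, of −0.80 (SE 0.120, edgeR adjusted p 0.000249) and lower values in 3 of 3 TALE libraries. That SE uses the spread shared across regions and is not that of the chrM libraries alone. Over the alternatives tried, the adjusted p ranged from 3.23e-27 by edgeR to 1.00 by DESeq2, and the difference without dCas9 replicate 3 was −0.58 (edgeR adjusted p 0.783). Its cause was not tested.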

How the results depend on the processing

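The 1 region called between TALE and dCas9, chrM, was not called by DESeq2 (0 regions, log2 difference −0.80, adjusted p 1.00, 2503 regions at an unadjusted p under 0.05) or by edgeR with no filter on low counts (0 regions, −0.80, adjusted p 0.527, 8478 regions at an unadjusted p under 0.05). With chrM removed before the fit 0 regions were called. Leaving out 1 library at a time gave 0 to 1 called regions and chrM differences from −0.94 to −0.58, with the call lost without dCas9 replicate 3. The cause of these changes was not tested. Shares of counts without overlap numbered 3 among regions that pass the filter and 3 to 8 with 1 library left out, where fewer libraries have to be separated, against 1 of 33. With 1 library left out, a few small differences changed sign: the window that holds B2M ran from −0.0347 to 0.0272 (0.0175 without TALE replicate 2, 0.0272 without dCas9 replicate 1), the HBA2 start from −0.256 to 0.0654 (without TALE replicate 3), the GBP5 start from −0.392 (without TALE replicate 2) to 0.581, and B2M_tomato RNA from −0.259 to 0.0200 (0.0030 without TALE replicate 1, 0.0200 without dCas9 replicate 1). The peak-list Jaccard difference, within minus between platforms, went from −0.0067 to 0.0067 without TALE replicate 3. Differences that moved by over 1.5-fold without losing their sign were those by CUX1 (−2.62 to −1.10), in ZFYVE9 (−2.62 to −1.27) and near DUSP16 (−3.43 to −2.22) and at the starts of LCN12 (0.77 to 1.77) and PDIA3 (0.35 to 1.43). Of 850 values of 49 single items under the alternatives, the other 844 kept their direction and side of the threshold. Windows, gene starts and RNA of the named genes gave 0 calls under every alternative run. The B2M region did not pass the filter where at least 10 counts were asked of every library or where only the TALE and dCas9 libraries were fitted, so neither gave a value for it.

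Replicate numbers did not pair the samples: deviations of same-numbered libraries correlated from −0.01 to 0.00 over regions and from −0.26 to 0.10 over RNA. With the replicate block, 1 region was called (chrM, −0.79), and the B2M region differed by −0.68. Depth limits what single regions can show: 9.16% of tested regions had a 95% interval within a 1.5-fold change.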

Other observations

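One further region, chosen after its values were seen, had 0 counts in all 3 TALE libraries and at least 7 in all 3 untreated ones. It overlaps an exon, 12727 bp from the start of MAX, the dimerization partner of MYC (chr14:65556388-65556686), and had 8, 11 and 11 counts in untreated cells and 14, 1 and 1 in dCas9 cells. No region met the same pattern with 0 counts in the dCas9 libraries.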
